A study of Bos taurus with 30 samples.

Results

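The insulin-like growth factor (IGF) system was followed through 10 genes: the ligand IGF1, the receptors IGF1R and INSR, and the binding proteins IGFBP1 to IGFBP7. They were chosen by name and found by the Entrez gene ID of each row, and all 10 were present among the 35092 genes counted. The IDs were 281239 for IGF1, 281848 for IGF1R, 408017 for INSR, 282259 for IGFBP1, 282260 for IGFBP2, 282261 for IGFBP3, 282262 for IGFBP4, 404185 for IGFBP5, 404186 for IGFBP6 and 616368 for IGFBP7.

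The study compared Holstein embryos produced in vitro (IVP) with embryos conceived in vivo (IVV), recovered at day 15, when the conceptus elongates and the disc gastrulates. IVP embryos came from slaughterhouse oocytes that were matured and fertilized in the laboratory, grown without serum to day 7 and placed in synchronized recipients. IVV embryos came from superovulated donors inseminated with semen of the bull that also sired the IVP embryos. The embryonic disc (ED) and the extra-embryonic membranes (EEM) were cut apart and sequenced as poly(A)-selected RNA. There were 7 IVP and 9 IVV libraries of the ED, and 6 IVP and 8 IVV libraries of the EEM. They came from 17 embryos, and 13 of these, 5 IVP and 8 IVV, gave both tissues. Recipients and donors were different cows, a pair of each, and embryos without a visible disc had been discarded, so procedure, cow and hormonal treatment cannot be told apart. The study found a disc in a smaller share of IVP than of IVV embryos, and its IVP embryos were shorter on average. The sex, length and stage of each embryo are not in the labels.

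IGF1 and IGF2 activate the tyrosine kinase IGF1R, and IGF2 can also act through the insulin receptor INSR, while IGF2R removes IGF2 without signaling. Ligand in the tissue fluid is held by the IGFBPs, most of which bind IGFs tightly, and proteases such as PAPPA and PAPPA2 cut certain IGFBPs and free it. The ruminant uterus secretes IGFs and IGFBPs into its lumen, so that a free-floating conceptus meets maternal as well as its own components.

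Library totals ran from 48713218 to 63037371 counts, and values are given as CPM, a gene's count relative to the total of its library after TMM scaling. Levels of different genes are not compared, since no transcript lengths were at hand. Of the epiblast markers, 6 of 7 were matched, and their summed level ran from 29.3 to 323 CPM in the ED against 4.23 to 9.01 CPM in the EEM, with SOX2 listed at 0 in every library. Whether the 0 of SOX2 reflects its expression or the annotation used for counting was not tested. The summed level of 9 trophoblast markers ran from 1609 to 6912 CPM in the ED and from 2882 to 9099 CPM in the EEM, so that the disc pieces also held RNA of trophoblast markers. The sum of 9 hypoblast markers reached 1728 CPM in the ED and 2115 CPM in the EEM. Sums of the 8 endometrial and 7 blood markers did not exceed 25.2 and 45.6 CPM, with PAEP at 0 in every library and HOXA11 at no more than 14 counts. One IVV embryo, VE19, stood apart in the EEM, where its surrogate variable (the main unlabelled axis of variation fitted in each tissue) was 0.69 against -0.25 to 0.36 in the other libraries. Calls on members that change without it are given both ways.

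IGF1, the ligand made mainly by liver and by the uterine wall, was essentially not counted in these embryos. It held at most 2 counts in each of the 30 libraries, which is under the limit of 3 counts per library set here, or 0.0442 to 0.0694 CPM. IGF1 therefore fell below the filter on low counts, and no difference between groups was detectable at this depth. With no filter its adjusted p was 0.421 or more in each of the 6 comparisons.

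**Figure D1:**
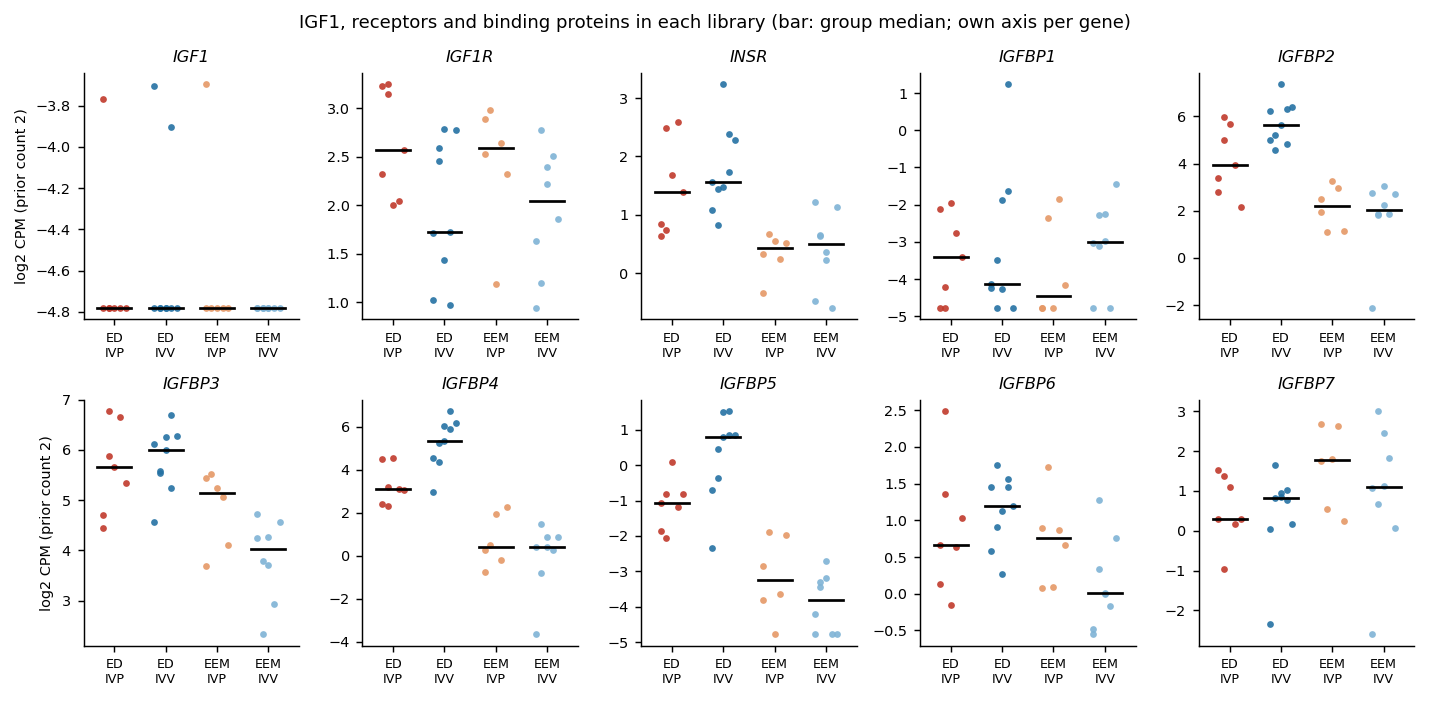
Each point is 1 library, the bar is the group median, and the vertical axis is log2 CPM with a prior count of 2, with its own scale for each gene. IGFBP4 and IGFBP5 lie highest in the ED of IVV embryos, IGFBP2, IGFBP4 and IGFBP5 show no overlap between ED and EEM of IVV embryos (5.58% of all genes show none), and IGF1 lies at the lower limit in all groups.

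The first comparison asked how the ED of IVP embryos differed from that of IVV embryos. IGFBP4 was 4.23-fold and IGFBP5 3.45-fold lower in the ED of IVP embryos. Of the 8 members tested, 2 were lower and 0 higher at an adjusted p under 0.05 in the quasi-likelihood test of edgeR, adjusted over 15733 genes by Benjamini-Hochberg. Of all genes tested 6.34% were called, 4.95% lower and 1.40% higher. The median log2 difference was -0.36 over the 8 members and -0.01 over all genes tested. DESeq2 also placed 2 members lower and 0 higher.

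IGFBP4, a binding protein that holds IGFs away from their receptor until it is cut, ran from 4.92 CPM through a median of 8.59 to 23.4 CPM in the ED of the 7 IVP embryos. In the ED of the 9 IVV embryos it ran from 7.75 through 40.1 to 108 CPM. The groups overlapped, but 7 of the 9 IVV discs lay above every IVP disc, and the lowest IVV disc was that of VE19. The log2 difference, IVP minus IVV, was -2.08 ± 0.44 (SE, adjusted p = 0.00522). It stayed between -2.35 and -1.85 when each embryo was left out in turn, with adjusted p between 0.00115 and 0.0206. The call was lost with XIST as a covariate (-1.81, adjusted p = 0.0714), an RNA whose level differed between the procedures.

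IGFBP5, a binding protein that attaches to the extracellular matrix, ran from 0.204 through 0.443 to 1.02 CPM in the IVP discs. The IVV discs ran from 0.161 through 1.71 to 2.86 CPM. Here 6 of the 9 IVV discs lay above every IVP disc, and VE19 was again the lowest. Counts were small, 9 to 64 in the IVP and 8 to 188 in the IVV libraries. The log2 difference was -1.79 ± 0.44 (adjusted p = 0.0146), and it was -1.41 (adjusted p = 0.0748) without IVP11. The call was also lost with the XIST covariate (adjusted p = 0.157) and with the last letter of the sample title as one (0.0514).

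IGFBP2, the binding protein that lies next to IGFBP5 in the cattle genome, ran from 4.48 through 15.5 to 63.6 CPM in the IVP discs and from 23.5 through 50.4 to 164 CPM in the IVV discs. The 4 lowest of all discs were IVP and the 4 highest were IVV. Its log2 difference of -1.40 ± 0.49 did not pass the test (adjusted p = 0.0932). It did pass when IVP11, IVPF15, VE4 or VE6 was left out (adjusted p from 0.0164 without IVP11 to 0.0479 without VE6).

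The receptors gave no call in the ED. IGF1R, the signaling receptor for both IGFs, ran from 3.97 through 5.91 to 9.44 CPM in IVP discs and from 1.92 through 3.27 to 6.87 CPM in IVV discs. The log2 difference was 0.63 ± 0.31 (adjusted p = 0.29), with 5 IVV discs below every IVP disc and 3 IVP discs above every IVV disc. INSR, the insulin receptor, ran from 1.52 through 2.59 to 5.96 CPM in IVP discs and from 1.74 through 2.93 to 9.37 CPM in IVV discs. These ranges overlapped widely, and the log2 difference was -0.56 ± 0.36 (adjusted p = 0.462).

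The other binding proteins overlapped between the procedures. IGFBP3, the main carrier of IGFs in plasma, had medians of 50.8 CPM in IVP and 63.8 CPM in IVV discs, with a log2 difference of -0.17 ± 0.28 (adjusted p = 0.85). IGFBP6, which prefers IGF2 over IGF1, had medians of 1.54 and 2.26 CPM and a difference of -0.13 ± 0.32 (adjusted p = 0.906). The range of IGFBP6 in IVP discs, 0.861 to 5.59 CPM, enclosed that of the IVV discs. IGFBP7, a secreted protein of low affinity for IGFs, had medians of 1.20 and 1.73 CPM and a difference of -0.14 ± 0.36 (adjusted p = 0.91).

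IGFBP1, a binding protein made by liver and decidua, was too sparse for the test in either tissue. It held 0 to 14 counts in the IVP discs and 0 to 152 in the IVV discs, where the ED of VE6 alone gave the 152 counts and the next value was 0.287 CPM. Only 3 of 7 IVP and 3 of 9 IVV discs exceeded 3 counts.

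**Figure D2:**
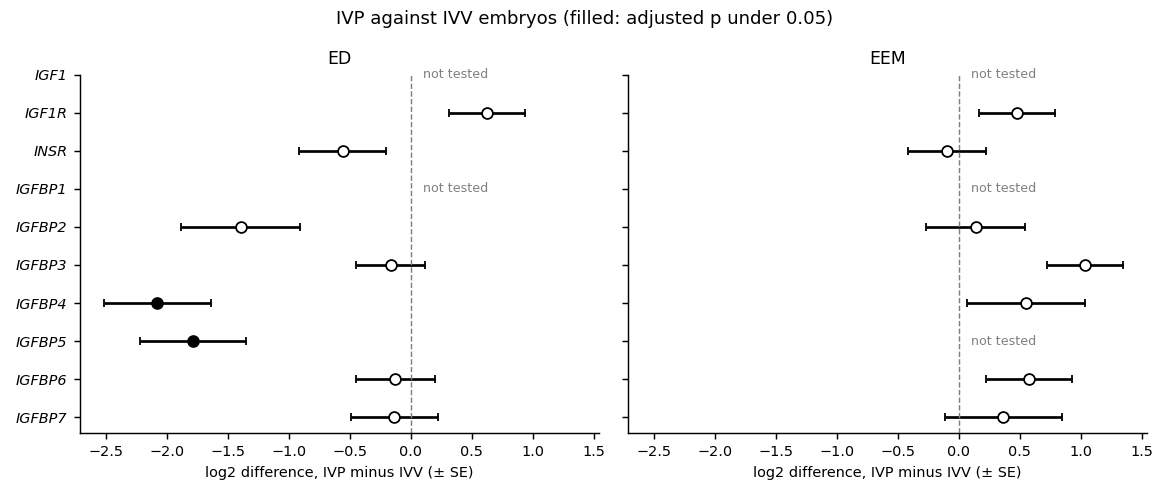
Points are the log2 difference between IVP and IVV embryos (IVP minus IVV) with its SE, left in the ED and right in the EEM, from the edgeR fit, and filled points have an adjusted p under 0.05. IGFBP4 (-2.08) and IGFBP5 (-1.79) are the filled points, both in the ED, and IGFBP3 in the EEM lies at 1.04.

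The second comparison put the EEM of IVP against that of IVV embryos. No member passed the test there. Of the 7 members tested, 0 were higher and 0 lower by edgeR, and 1 of them, IGFBP3, had an unadjusted p under 0.05, while 3.81% of the 14718 genes tested were called, 2.29% higher and 1.52% lower. DESeq2 placed 1 member higher, again IGFBP3 (adjusted p = 0.0408).

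IGFBP3 ran from 12.9 through 35.5 to 46.0 CPM in the EEM of the 6 IVP embryos and from 4.98 through 16.4 to 26.2 CPM in that of the 8 IVV embryos. Of the IVP libraries 4 lay above every IVV library, and the highest IVV library was that of VE19. The log2 difference was 1.04 ± 0.31 (adjusted p = 0.0638), and without VE19 it was 1.20 (adjusted p = 0.000827). It was also past the threshold without IVP10 (adjusted p = 0.0284), IVPF14 (0.0241) or VE3 (0.0428), and with 2 surrogate variables (0.0325) or no filter on low counts (0.028). The other leave-outs gave adjusted p up to 0.168, and with the XIST covariate the difference was 0.66 (adjusted p = 0.88).

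For the remaining members in the EEM the 2 procedures overlapped. IGF1R had medians of 5.96 CPM in IVP and 4.10 CPM in IVV membranes (log2 difference 0.47 ± 0.31, adjusted p = 0.614), and INSR of 1.31 and 1.39 CPM (-0.10 ± 0.32, adjusted p = 0.988). IGFBP6 had medians of 1.67 and 0.969 CPM (0.57 ± 0.35, adjusted p = 0.556). The medians of IGFBP2, 4.71 and 4.14 CPM, of IGFBP4, 1.288 and 1.296 CPM, and of IGFBP7, 3.38 and 2.10 CPM, went with differences of 0.14 ± 0.41, 0.55 ± 0.48 and 0.36 ± 0.48. In the fit for IGFBP4 the difference was -0.07 without VE19, whose EEM held 2 counts of this gene. IGFBP5 held 0 to 12 counts and IGFBP1 0 to 15 counts in the EEM and neither was tested.

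The third comparison set the ED against the EEM of the same embryo. Of the 7 binding proteins 5 were higher in the ED, as was INSR, and IGFBP7 was lower. Over the 13 embryos, 6 of the 9 members tested were higher in the ED and 1 lower by edgeR with embryo as a block, while 24.5% of the 16784 genes tested were called, 14.4% higher and 10.1% lower. The median log2 difference, ED minus EEM, was 1.12 over the 9 members and -0.09 over all genes. Since the pieces are bulk tissue, more cells of a type and more RNA per cell cannot be told apart.

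IGFBP4 was the member with the smallest p. The ED of the IVV embryos lay above the EEM of the IVV embryos in every library, 7.75 CPM at the lowest against 2.72 CPM at the highest. In the IVP embryos the lowest ED, at 4.92 CPM, lay just above the highest EEM, at 4.73 CPM. Over all genes tested, the 2 tissues did not overlap for 5.58% in IVV and for 2.71% in IVP embryos. The log2 difference was 4.06 ± 0.37 over all embryos (adjusted p = 1.45e-07), and the ED was higher in 13 of 13 embryos, by 2.11 in IVP10 up to 6.62 in VE19.

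IGFBP2 and IGFBP5 followed. IGFBP2 was higher in the ED by 3.17 ± 0.43 on the log2 scale (adjusted p = 1.72e-05), in 8 of 8 IVV and 4 of 5 IVP embryos. The exception was IVPF13, with 4.48 CPM in the ED and 7.72 CPM in the EEM. IGFBP5 was higher by 3.81 ± 0.62 (adjusted p = 0.000125), in 8 of 8 IVV and 4 of 5 IVP embryos, though the EEM side rested on 0 to 12 counts.

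IGFBP3 was higher in the ED by 1.33 ± 0.25 (adjusted p = 0.000549), in 7 of 8 IVV and 5 of 5 IVP embryos. The IVV exception was VE19, with 23.7 CPM in the ED and 26.2 CPM in the EEM. IGFBP6 was higher by 0.63 ± 0.20 (adjusted p = 0.0249), in 8 of 8 IVV but 3 of 5 IVP embryos. Its adjusted p lay just over the threshold without VE26 (0.0529), VE28 (0.0505) or VE3 (0.0509), and with no replicate block it was 0.133 in the same 26 libraries and 0.0804 in all 30.

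INSR was higher in the ED in 13 of 13 embryos, by 1.12 ± 0.25 (adjusted p = 0.00295). The difference was as small as 0.07 in IVP11 and as large as 3.01 in VE5. IGF1R differed by 0.12 ± 0.19 (adjusted p = 0.666), with the ED higher in 5 of 8 IVV and 4 of 5 IVP embryos. Its medians were 5.91 and 5.96 CPM in the ED and EEM of IVP embryos, and 3.27 and 4.10 CPM in those of IVV embryos.

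IGFBP7 was the member that was lower in the ED, by -0.86 ± 0.22 on the log2 scale (adjusted p = 0.00859). The EEM was higher in 5 of 8 IVV and 4 of 5 IVP embryos. With no replicate block the adjusted p was 0.0813 in the same 26 libraries and 0.054 in all 30. The ED ran from 0.475 through 1.20 to 2.83 CPM in IVP and from 0.161 through 1.73 to 3.12 CPM in IVV embryos, and the EEM from 1.14 through 3.38 to 6.40 CPM and from 0.128 through 2.10 to 8.04 CPM. VE19 held the lowest value in both tissues of the IVV embryos. IGFBP1 was -0.62 ± 0.96 (adjusted p = 0.664).

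**Figure D3:**
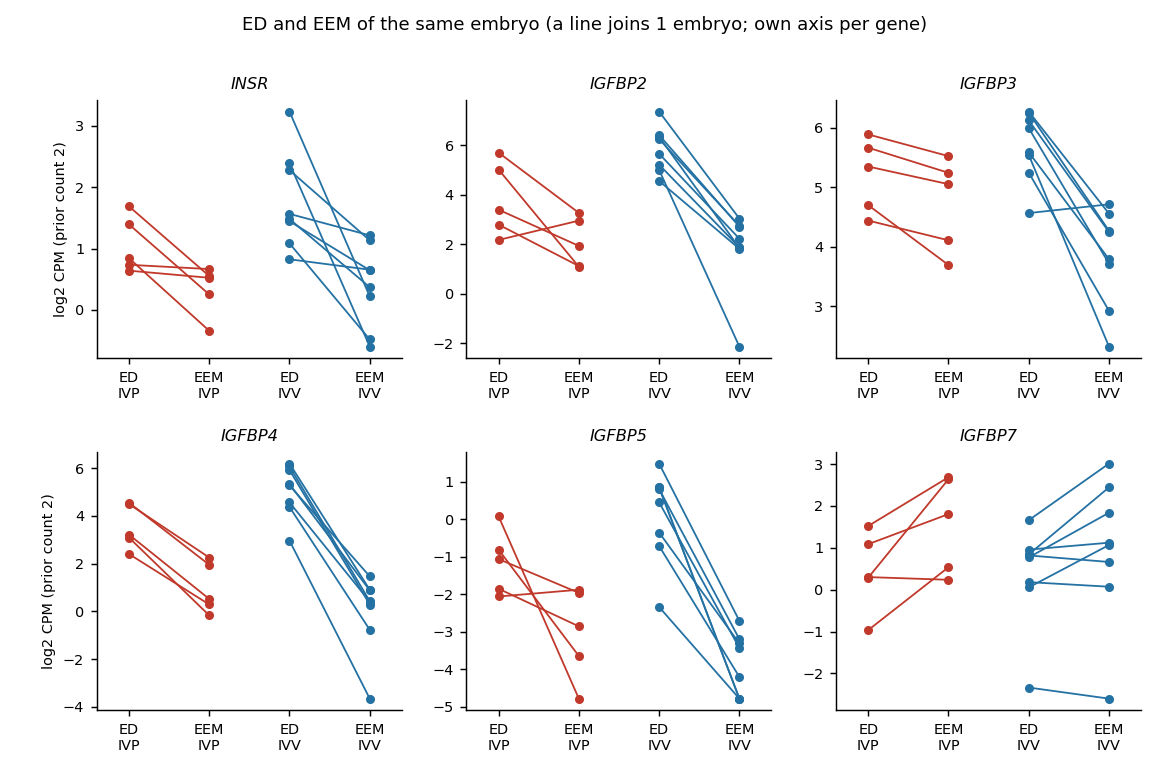
A line joins the ED and the EEM of 1 embryo, red for the 5 IVP and blue for the 8 IVV embryos, on a log2 CPM axis (prior count 2) with its own scale for each gene. The lines of IGFBP4 fall from ED to EEM in all 13 embryos and fall further in IVV embryos, the IGFBP2 line of IVPF13 rises, and 9 of the 13 IGFBP7 lines rise.

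Within each procedure the same model gave more calls in IVV than in IVP embryos. In IVV embryos 6 of 9 members were higher in the ED and 0 lower (1 at an unadjusted p under 0.05, IGFBP7), while 22.1% of all genes were called, 15.6% higher and 6.55% lower. DESeq2 also gave 6 and 0. In IVP embryos 1 member was higher, IGFBP4, and 0 were lower, while 4.83% of all genes were called, 4.18% higher and 0.649% lower. DESeq2 gave 2 higher and 1 lower in IVP embryos, with 1201 genes called over all against 810 by edgeR. The IVP embryos were 5 and the IVV embryos 8.

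The members that passed in IVV embryos were IGFBP4 by 5.03 ± 0.27, IGFBP5 by 4.96 ± 0.65, IGFBP2 by 3.95 ± 0.43, IGFBP3 by 1.91 ± 0.24, INSR by 1.39 ± 0.32 and IGFBP6 by 0.96 ± 0.23. In IVP embryos the corresponding log2 differences were 2.56 ± 0.30 for IGFBP4 (adjusted p = 2.28e-05), 1.95 ± 0.75 for IGFBP5 (0.166, and 1.21 without IVP14 or 2.63 without IVP11), 1.75 ± 0.54 for IGFBP2 (0.069, and 0.021 without VE19 or 0.00813 without IVPF13), 0.45 ± 0.28 for IGFBP3 (0.457), 0.71 ± 0.39 for INSR (0.372) and 0.12 ± 0.28 for IGFBP6 (0.878). Each was smaller than in IVV embryos, but these members were chosen for passing there, which favours larger IVV values. Members that did not pass there went otherwise. IGF1R differed by 0.23 ± 0.30 in IVP and 0.05 ± 0.25 in IVV embryos, and IGFBP1 by 0.30 ± 1.53 and -1.06 ± 1.14. IGFBP7 differed by -1.19 ± 0.35 (0.0563) in IVP and by -0.65 ± 0.28 (0.103) in IVV embryos. In IVP embryos it passed with DESeq2 (adjusted p = 0.0182), with no filter (0.0354), with halved counts (0.0475) and without IVPF14 (0.0235). IGFBP2 passed in IVP embryos in 4 of 6 other settings, with DESeq2, no filter, halved counts, or all 30 libraries without a block. Its adjusted p over the 6 ran from 0.00535 to 0.0702.

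Whether the effect of the procedure differed between the tissues was tested directly, as the interaction of tissue and procedure. IGFBP4 was the member that passed. The excess of the ED over the EEM was smaller in IVP than in IVV embryos, with a log2 difference of -2.47 ± 0.38 (adjusted p = 0.0023). Of the 9 members 1 was called lower and 0 higher by edgeR, while 1.02% of all genes were called, 0.918% lower and 0.107% higher. The excess of the ED ran from 2.11 to 3.26 in the 5 IVP embryos and from 3.81 to 6.62 in the 8 IVV embryos, so the embryos of the 2 procedures did not overlap, as was the case for 1.28% of all genes. Leaving out each embryo gave -2.68 to -2.31, with adjusted p between 0.000762 and 0.0118. With no replicate block the value was -2.47 in the same 26 libraries, not past the threshold (adjusted p = 0.112, in a fit chosen after seeing the data), and -2.69 in all 30 (adjusted p = 0.0331).

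IGFBP3 gave -1.46 ± 0.37 (adjusted p = 0.0595), and -1.68 (adjusted p = 0.00217) without VE19. DESeq2 called IGFBP3 as well (adjusted p = 0.00973). IGFBP2 gave -2.20 ± 0.66 (adjusted p = 0.129), IGFBP5 -3.01 ± 1.02 (0.212) and IGFBP6 -0.84 ± 0.36 (0.395). IGFBP5 passed without IVP14 (-3.75, adjusted p = 0.0478). The receptors gave 0.19 ± 0.39 for IGF1R and -0.68 ± 0.50 for INSR, and IGFBP7 gave -0.54 ± 0.44, none past the threshold. The fit and the ED comparison share the disc libraries, and are not independent of each other.

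Levels of disc markers also differed between the procedures. The summed level of 8 primitive streak and mesoderm markers ran from 13.3 through 31.1 to 56.8 CPM in IVP discs and from 54.3 through 107 to 165 CPM in IVV discs. Of these 8 genes 6 were lower in IVP discs and 0 higher, among them TBXT, which marks the streak (-3.92 ± 0.90, adjusted p = 0.00901), and MIXL1 (-2.21 ± 0.36, adjusted p = 0.000474). The epiblast sum had medians of 51.5 CPM in IVP and 116 CPM in IVV discs, with POU5F1 lower (-1.72 ± 0.36, adjusted p = 0.0048) and DPPA4 higher (1.00 ± 0.27, adjusted p = 0.0248) of 4 tested. NANOG was in every disc library, at 157 to 2862 counts. MIXL1 and TBX6 were also called in the interaction, with -2.45 ± 0.44 and -2.51 ± 0.51. Within IVP discs, sums of 56.8, 50.9, 32.9 and 31.1 CPM (IVPF15, IVP10, IVP14, IVP11) went with IGFBP4 at 4.92, 5.24, 23.4 and 9.24 CPM. Sums of 15.0, 14.4 and 13.3 CPM (IVPF14, IVPF13, IVPF10) went with 22.5, 8.47 and 8.59 CPM. Within IVV discs, sums of 54.3, 66.7, 76.5 and 87.9 CPM (VE19, VE3, VE24, VE26) went with IGFBP4 at 7.75, 23.6, 20.7 and 40.1 CPM. Sums of 107, 114, 123, 127 and 165 CPM (VE4, VE28, VE29, VE6, VE5) went with 38.7, 60.6, 72.9, 108 and 67.1 CPM. The trophoblast sum ran from 1609 through 4439 to 6912 CPM in IVP discs and from 2798 through 3714 to 4170 CPM in IVV discs, a range that the IVP discs enclosed. Of the 9 trophoblast markers 0 were higher and 1 lower in IVP discs by edgeR, KRT7 (-0.95 ± 0.25, adjusted p = 0.0252), which was the 1 marker with an unadjusted p under 0.05. The endometrial sum ran from 5.72 through 16.8 to 25.2 CPM in IVP discs and from 8.65 through 9.96 to 15.5 CPM in IVV discs, with PAEP at 0. Of the 4 endometrial markers tested 1 was higher, MUC1, also made by other epithelia (1.10 ± 0.27, adjusted p = 0.0162), and the median log2 difference of the 4 was -0.24. The part of these markers in the results for IGFBP4 and IGFBP5 was not tested.

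**Figure D4:**
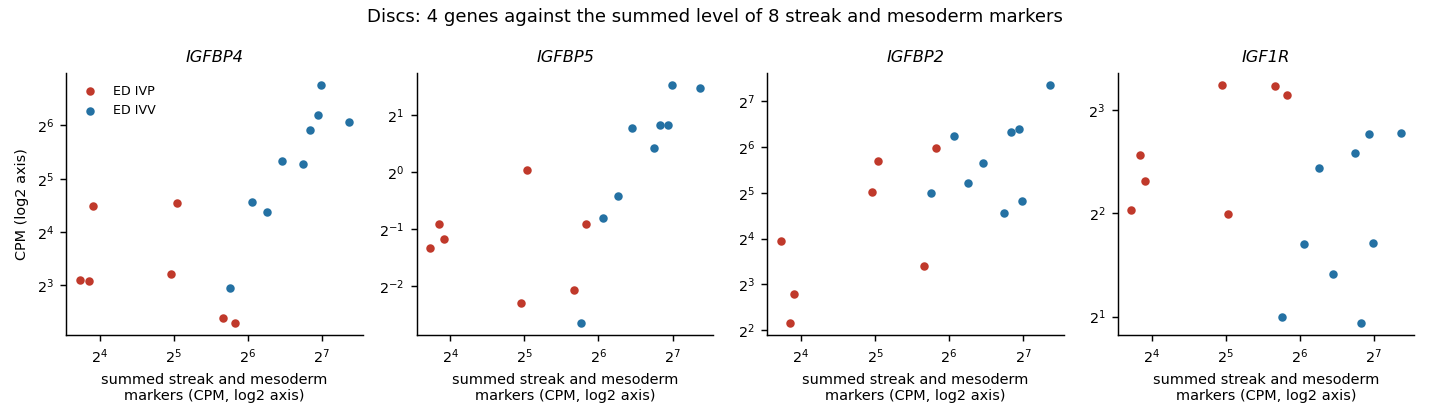
Each point is 1 disc, red for the 7 IVP and blue for the 9 IVV embryos, with the summed CPM of 8 streak and mesoderm markers on the horizontal and the CPM of the gene on the vertical axis, both log2 axes. The sums of the IVP discs end at 56.8 CPM and those of the IVV discs begin at 54.3 CPM, so the groups share almost no range of the marker sum.

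XIST, the RNA that coats an inactive X chromosome, also differed in level between the procedures. It exceeded 1 CPM in 7 of 9 IVV discs and 6 of 8 IVV membranes, and in 0 of 7 and 0 of 6 IVP libraries. With the log2 CPM of XIST as a further covariate, the calls on IGFBP4 and IGFBP5 in the ED were lost, as given above, while IGFBP2 was -2.10 (adjusted p = 0.0346). In the EEM, IGFBP7 moved to 1.75 with this covariate, not past the threshold (adjusted p = 0.365). Sex is not in the labels, and XIST level and procedure can be told apart only through the IVV embryos VE3 and VE5, whose libraries had under 1 CPM. In these 2 discs IGFBP4 was 23.6 and 67.1 CPM, against at most 23.4 CPM in IVP discs. IGFBP5 was 0.575 and 2.77 CPM, of which the first lay below the highest IVP disc at 1.02 CPM.

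Sample titles end in A or C, with no meaning given. With this letter as a covariate, chosen after seeing the data, IGFBP4 in the ED was -1.95 (adjusted p = 0.0223) and IGFBP5 -1.64 (adjusted p = 0.0514).

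Beyond the 10 members, a list of 59 genes of the IGF pathway was counted. In the ED, 1 of 54 tested was higher in IVP embryos and 5 were lower, beside 1.40% and 4.95% of all genes, while 14 had an unadjusted p under 0.05. The median log2 difference over these 54 was 0.07, close to the -0.01 over all genes.

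IGF2, the fetal growth factor, ran from 5.89 through 9.55 to 23.8 CPM in IVP discs and from 7.34 through 26.3 to 66.2 CPM in IVV discs. Its log2 difference was -1.19 ± 0.35 (adjusted p = 0.0436). The call on IGF2 was close to the threshold and was lost with no surrogate variable (adjusted p = 0.0917) or 2 of them (0.0908), with the title letter (0.082), with the XIST covariate (-0.10, adjusted p = 0.993) and on leaving out 9 of the 16 embryos in turn. IGF2R, which clears IGF2, ran from 66.8 through 117 to 216 CPM and from 62.6 through 82.8 to 119 CPM, with a difference of 0.50 ± 0.18 (adjusted p = 0.121).

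HTRA1, a secreted serine protease, showed no overlap between the procedures in the ED. It ran from 0 through 0.153 to 0.191 CPM in IVP discs, at most 12 counts, and from 1.12 through 3.44 to 5.25 CPM in IVV discs. The log2 difference was -4.69 ± 0.53 (adjusted p = 8.94e-06), and 0.858% of the genes tested did not overlap. HTRA3, a related protease whose groups overlapped, with at most 16 counts in IVP discs, differed by -2.45 ± 0.70 (adjusted p = 0.0376). This call was lost without IVP11, IVPF13, IVPF14, VE28, VE29 or VE5 (adjusted p from 0.0582 to 0.13), and with 2 surrogate variables (0.0816), the XIST covariate (0.0938) or the title letter (0.114).

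The adaptors IRS2 and IRS4, which carry the receptor signal, were lower as well. IRS2 ran from 0.426 through 1.00 to 2.19 CPM in IVP discs and from 1.67 through 3.11 to 11.1 CPM in IVV discs, with some overlap and a log2 difference of -2.09 ± 0.42 (adjusted p = 0.00336). IRS4 differed by -2.16 ± 0.55 (adjusted p = 0.0199), on 3 to 23 counts in IVP and 8 to 184 in IVV discs, and by -1.45 (adjusted p = 0.113) without VE5. RPTOR, a subunit of the growth-regulating kinase complex MTORC1, was the pathway gene that was higher, by 0.97 ± 0.22 (adjusted p = 0.00793, and 0.118 with the XIST covariate), with 33.3 to 115 CPM in IVP and 24.4 to 50.5 CPM in IVV discs. Of 20 genes of the PI3K-AKT-MTOR arm RPTOR was the only one called, and of the 9 RAS-MAPK genes 0 were called, with 0 at an unadjusted p under 0.05 and 0 by DESeq2.

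In the EEM, 1 of 48 pathway genes tested was lower in IVP embryos and 0 were higher by edgeR (4 in either direction at an unadjusted p under 0.05), beside 1.52% and 2.29% of all genes, and DESeq2 gave 1 and 0. It was ADAM12, a metalloprotease that can cut IGFBPs. In the IVP membranes no library held more than 1 count, while the IVV membranes ran from 0 through 20.5 to 37 counts (adjusted p = 0.000995). The difference for IGF2 was -0.50 ± 0.31 (adjusted p = 0.578) and for IGF2R 0.52 ± 0.21 (adjusted p = 0.206).

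Between the tissues, 14 of 56 pathway genes were higher in the ED and 7 lower, beside 14.4% and 10.1% of all genes. The group with most calls was the 9 genes of IGFBP processing and carriage, of which 6 were higher and 2 lower. STC2, which blocks the IGFBP proteases PAPPA and PAPPA2, had 50 to 1716 counts in the ED and 0 to 20 in the EEM, a log2 difference of 5.93 ± 0.55 (adjusted p = 1.93e-07). PAPPA2 itself was lower in the ED of IVV embryos, by -0.41 ± 0.14 (adjusted p = 0.0387), a call lost without 6 of the 8 IVV embryos in turn, with RLE size factors (adjusted p = 0.0554), with either other filter (0.0808 and 0.137) and with no replicate block (0.535 in the same 26 libraries).

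FOXO1, a transcription factor that AKT keeps out of the nucleus, was higher in the ED by 2.41 ± 0.23 (adjusted p = 2.05e-07), as was its relative FOXO4 by 2.08 ± 0.30 in all embryos (adjusted p = 3.56e-05). IGF2 was higher by 1.17 ± 0.17 (adjusted p = 3.69e-05), the IGF2 mRNA-binding protein IGF2BP2 by 2.30 ± 0.29 (adjusted p = 6.49e-06), and the receptor inhibitor GRB14 by 3.46 ± 0.42 (adjusted p = 4.84e-06). Lower in the ED were the phosphatase PTPN1 (-0.39 ± 0.10), the adaptors SOS1 (-0.33 ± 0.09) and GRB2 (-0.38 ± 0.11) and the kinase AKT1 (-0.41 ± 0.13), all calls lost with no replicate block in the same 26 libraries (adjusted p from 0.15 to 0.315). The last 3 were also lost with at least 10 counts in every library (0.0538 to 0.0656), and AKT1 without VE28, VE29 or VE5 (0.0506 to 0.0565). IGF2R differed by 0.07 ± 0.09 (adjusted p = 0.61).

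In IVV embryos 14 pathway genes were higher in the ED and 8 lower, beside 15.6% and 6.55% of all genes. In IVP embryos 5 were higher and 0 lower (DESeq2 gave 7 and 0), beside 4.18% and 0.649%. STC2, FOXO1, GRB14, FOXO4 and IGF2BP2 were the 5 in IVP embryos, at 5.59 ± 0.87, 1.81 ± 0.30, 2.81 ± 0.65, 2.06 ± 0.52 and 1.47 ± 0.37. The call on FOXO4 was lost without IVP11 (adjusted p = 0.0888), IVP14 (0.147) or IVPF14 (0.0894), and that on GRB14 without IVP14 (0.0591). The IVV values for these genes were 6.08 ± 0.69, 2.80 ± 0.25, 3.81 ± 0.51, 2.08 ± 0.37 and 2.83 ± 0.31. None of the 56 passed the test of the interaction by edgeR, 6 had an unadjusted p under 0.05, and DESeq2 gave 1 call.

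**Figure D5:**
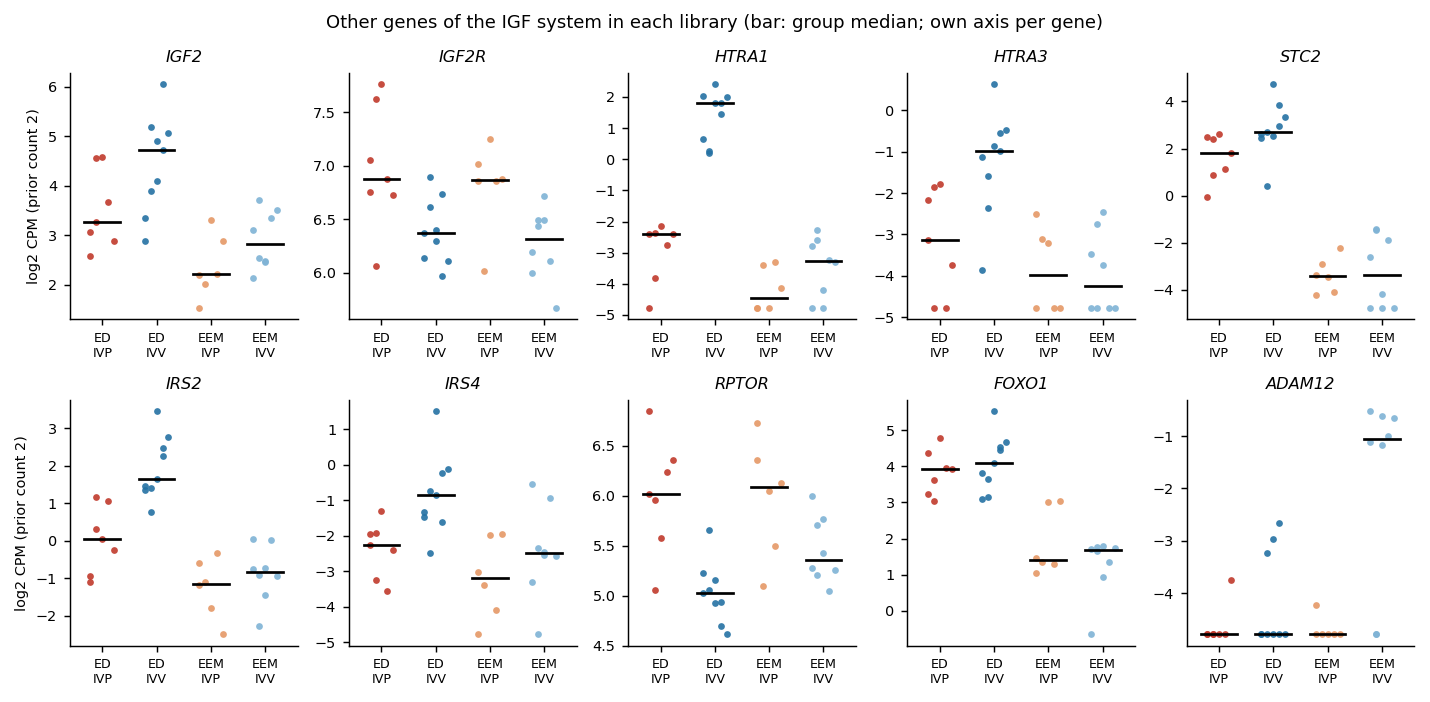
Each point is 1 library, the bar is the group median, and the vertical axis is log2 CPM with a prior count of 2, with its own scale for each gene. HTRA1 of the IVV discs lies above all other libraries, STC2 and FOXO1 lie higher in ED than in EEM, and ADAM12 reaches its highest levels in the EEM of IVV embryos.

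Finally, the genes whose pattern over the 30 libraries was most like that of the 7 members with a median of at least 1 CPM are given by Spearman's rho, among 14305 named genes. IGF1, IGFBP1 and IGFBP5 were below that level. The libraries share embryos and tissues, and the values are a description. IGFBP4 ran closest with ANPEP (0.963), PDCD4 (0.959) and NYNRIN (0.952), and IGFBP2 with TLE5 (0.918), OLIG3 (0.916) and EMILIN3 (0.906). INSR was nearest to GLDC (0.893), IGFBP7 to MSRB3 (0.869), IGFBP3 to MSI1 (0.863), IGF1R to KLHDC8A (0.825) and IGFBP6 to TSPO (0.701). IGFBP2 and IGFBP5 are neighbours in the RefSeq annotation of ARS-UCD2.0, as are IGFBP3 and IGFBP1. Both members of the first pair were higher in the ED, and of the second pair IGFBP3 was higher and IGFBP1 passed no test.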

How the data were processed

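Bulk RNA from 30 pieces of 17 embryos was measured. The deposited values are raw counts per gene, which the authors made from reads filtered with SOAPnuke, aligned with STAR 2.7.0b to ARS-UCD1.3 and counted with featureCounts (Subread 2.0.3) from a kit that does not mark strand, so overlapping antisense reads cannot be told apart. The submitters' processing notes also name FastQC 0.11.9 and Trimmomatic. Symbols came from RefSeq (ARS-UCD2.0), which named 31630 of 35092 IDs holding 99.5% of counts. From its positions only the order of neighbouring genes was taken. Small counts were more often even (19289 entries of 2 counts, 13344 of 3), so halved counts were tried. No columns were identical.

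Here edgeR 4.0.16 in R 4.3.3 was used: TMM, filterByExpr with a minimum count of 10, quasi-likelihood tests and Benjamini-Hochberg adjustment at 0.05 over all genes tested. Each tissue was fitted alone with 1 surrogate variable from svaseq (sva 3.50.0), since the study controlled for morphology with sva. ED and EEM were compared in 26 libraries with embryo as a block, because both pieces come from the same embryo. Deviations of the 2 pieces from their group means correlated between -0.187 and 0.636 (median 0.393), over 0.1 in 12 of 13 embryos. DESeq2 1.42.0, other filters, normalizations and covariates, and leaving out each embryo were alternatives. Replicates are embryos from few cows. Scripts were tested on simulated data.

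Values named are all 10 members and, of 59 pathway genes, IGF2, IGF2R and up to 4 per direction with the smallest p among those past the threshold. Beyond this rule, IGF2BP2 in IVP embryos, FOXO4 over all embryos, and GRB14 and FOXO4 in IVV embryos were named, with no alternative settings given. Members, pathway and marker lists (epiblast, streak and mesoderm, hypoblast, trophoblast, endometrium, blood) were chosen with earlier results of these data known. DNA methylation was not analysed here.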

Additional observations from a re-analysis of the deposited data

Results flagged for a closer look

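For IGFBP4 the difference between ED and EEM was smaller in IVP than in IVV embryos in the fit with embryo as a block. The interaction was -2.47 on the log2 scale (edgeR adjusted p = 0.0023), with the ED excess at 2.56 in IVP and 5.03 in IVV embryos. With no replicate block in the same 26 libraries its adjusted p was 0.112.

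In 6 of 36 groups of a member in 1 tissue and procedure, a single library lay far from the rest by Dixon's criterion at the 95% level on CPM, which chance alone meets in about 1 group in 20 where values are normally distributed. On log2 CPM none of these 6 met it and 4 others did, so the list depends on the scale. The 4 were IGFBP2, IGFBP4 and IGFBP7 of VE19, lowest in the EEM, the EEM and the ED of IVV embryos, and IGF1R of IVP14, lowest in the EEM of IVP embryos. On the CPM scale, INSR at 9.37 CPM and IGFBP2 at 164 CPM were both highest in the ED of the IVV embryo VE5, where the next values were 5.20 and 84.9 CPM. That disc also had the highest epiblast sum, 323 CPM, and the highest streak and mesoderm sum, 165 CPM, of all discs. A link between these was not tested. IGFBP1 reached 2.31 CPM in the ED of the IVV embryo VE6, against 0.287 CPM in the next disc. IGFBP5 reached 1.02 CPM in the ED of IVP14, against 0.536 CPM in the next IVP disc. IGFBP6 was highest in both tissues of IVP11, at 5.59 CPM in the ED (next 2.52 CPM) and 3.26 CPM in the EEM (next 1.82 CPM).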

How the results depend on the processing

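The refits gave 1836 values for the members and the named pathway genes, each for a gene, comparison and setting. Of these values 1688 kept their direction and side of the threshold, 84 lost and 36 gained significance, and 28 changed sign. The 1688 include genes not called in the main fit that stayed uncalled. The number of members past the threshold in the ED of IVP against IVV was 3 when genes with low counts were kept, and 1 with at least 10 counts in every library, with XIST as a covariate or with the last letter of the title as one, an alternative chosen after seeing the data. In the EEM it was 1 with 2 surrogate variables, with DESeq2 or without a filter. For ED against EEM it was 3 over all and in IVV embryos with at least 10 counts in every library, a filter that removed IGFBP4 for its 2 counts in VE19 and left 0 members called in IVP embryos and in the interaction. In IVP embryos it was 3 with DESeq2, without a filter or with halved counts. In the interaction it was 2 with DESeq2 and 3 without a filter.

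Calls over all genes in the ED were 1512 with DESeq2, 1845 without a filter, 431 with the strict filter and 659 with XIST. In the EEM they were 1211 without a filter, 275 with the strict filter and 146 with XIST. Between the tissues the strict filter gave 1828 calls over all, 1420 in IVV and 194 in IVP embryos. The interaction gave 435 with DESeq2, 356 without a filter and 11 with the strict filter.

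The planned fit with no replicate block also took in the 4 unpaired libraries, so a fit of the same 26 libraries with no block was added after seeing the data. In the 26 libraries calls over all genes were 2127, 2268 in IVV embryos, and the interaction had 0 members called (IGFBP4 at -2.47, adjusted p = 0.112, and IGF2R turned to 0.0075). With all 30 libraries they were 2304, 2349 in IVV embryos and 301 in the interaction. Then 4 members passed in IVP embryos (INSR at adjusted p = 0.0324, IGFBP2 at 0.00689 and IGFBP5 at 0.0408 besides IGFBP4), against 1 in the 26. IGFBP1 turned to 1.05 over all, 1.49 in IVV embryos and -1.13 in the interaction with the 30 libraries but not with the 26, and IGF2R to 0.10 in the interaction. IGFBP6 in IVV embryos had an adjusted p of 0.0513 with the 30 and 0.103 with the 26.

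With XIST as a covariate IGFBP6 (0.39) and IGFBP7 (0.38) in the ED and INSR (0.16) and IGF2 (0.0631) in the EEM changed sign, none past the threshold. The cause of these changes was not tested, beyond the genes and libraries each setting removes.

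Leaving out each embryo in turn gave 2 to 3 members and 639 to 1160 genes in the ED (3 members without IVPF15, VE4 or VE6, and 639 genes without VE29). It gave 0 to 1 members in the EEM (1 without IVP10, IVPF14, VE19 or VE3), and 1 to 2 members and 473 to 851 genes for the tissues in IVP embryos (2 members without IVPF13, IVPF14 or VE19, of which IGFBP2 joined IGFBP4 without IVPF13 or VE19, and 473 genes without IVP14). The interaction gave 1 to 2 members (2 without IVP14 or VE19) and 101 to 211 genes, the lower counts being 101 without VE29, 104 without VE28 and 109 without IVP10 or IVPF14. Signs turned for IGFBP7 in the ED (-0.34 to 0.31), for INSR (-0.22 to 0.0124), IGFBP2 (-0.20 to 0.40), IGFBP4 (-0.0671 to 0.80) and IGFBP7 (-0.0275 to 0.94) in the EEM, for IGF1R between the tissues in IVV embryos (-0.13 to 0.26), for IGFBP1 (-0.94 to 1.54), IGFBP6 (-0.0104 to 0.22) and IGF2R (-0.0815 to 0.10) in IVP embryos, and for IGF2R in the interaction (-0.17 to 0.0465). Limits of 3 counts cover counting error only.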

Other observations

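Other genes of IGFBP processing and carriage, named here after their values were seen, were also higher in the ED than in the EEM over the 13 embryos. STC1, a relative of STC2, was higher by 1.61 ± 0.28 on the log2 scale (edgeR adjusted p = 0.00023), HTRA1 by 4.67 ± 0.61 (1.41e-05), HTRA3 by 2.97 ± 0.79 (0.00931), the protease PAPPA by 3.07 ± 0.95 (0.0241) and IGFBPL1 by 2.08 ± 0.64 (0.0238). ADAM12 was lower by -3.55 ± 1.20 (0.0441). In the EEM, HTRA1 held at most 9 counts and HTRA3 at most 8. ADAM12 held 0 to 37 counts in the EEM of IVV embryos and at most 1 in that of IVP embryos. Within IVP embryos alone, 0 of these 6 genes passed the threshold by edgeR, with STC1 and HTRA1 at an unadjusted p under 0.05 (0.00773 and 0.0326).

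Without a filter on low counts, IGFBP1 differed by -1.88 ± 1.00 in the ED of IVP against IVV embryos (adjusted p = 0.282) and IGFBP5 by 1.73 ± 0.92 in the EEM (adjusted p = 0.358).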
